A study of Mus musculus with 2 samples.

Results

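The levels of 10 genes of the transforming growth factor beta (TGF-beta) system were followed through the cells of the mouse temporomandibular joint (TMJ). They were the ligands Tgfb1, Tgfb2 and Tgfb3, the receptors Tgfbr1, Tgfbr2 and Tgfbr3, the latent TGF-beta binding proteins Ltbp1, Ltbp2 and Ltbp4, and Tgfbi, a matrix protein gene named for its induction by TGF-beta. The genes were chosen by their place in this pathway and found by symbol, and they made 10 of 32285 gene rows. The study compared TMJ tissue injected with phosphate-buffered saline (PBS) with tissue injected with complete Freund's adjuvant (CFA), an oil with killed mycobacteria that provokes inflammation, by droplet single-cell RNA sequencing. Both libraries came from WT C57BL/6 mice labelled as 8-10 weeks old, and the study's methods describe female mice that received 10 µL at 8 weeks, either PBS or CFA (5 mg/mL), and were collected 3 weeks later. The digested tissue held condyle, disc, ligament, muscle and temporal bone together (n = 3 combined for each treatment), and cells with the leukocyte protein CD45 were depleted with magnetic beads before loading. The joint tissues therefore cannot be told apart, the immune cells are those that escaped depletion, and 1 library stood for each treatment.

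TGF-beta ligands are secreted still wrapped in their own propeptide. Latent TGF-beta binding proteins attach this latent complex to the extracellular matrix, where integrins, thrombospondin and proteases can release the active ligand. Active ligand brings together the kinases Tgfbr2 and Tgfbr1, often with help from the coreceptor betaglycan (Tgfbr3), and the signal passes to SMAD proteins. In joints the pathway is known for maintaining cartilage, for laying down matrix in synovium and tendon, and for restraining immune cells.

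A level here is given in CPM, the unique molecular identifiers (UMIs, which count captured RNA molecules) of a gene per 1000000 UMIs of a cell class in 1 library. With 1 library per treatment there was no test of CFA against PBS, and each CFA to PBS ratio describes these 2 libraries. The 95% intervals in brackets (exact Poisson for levels, exact conditional for ratios, Clopper-Pearson for shares) cover counting error only. A ratio counted as higher at 1.5 or above and as lower at 0.667 or below, where the class held at least 20 UMIs of the gene over both libraries. In the text a pair of levels gives PBS first, and the brackets after it give the ratio and its interval.

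After filtering, 2667 cells of 7671 deposited barcodes remained in the PBS library (27201994 UMIs, median 7022 per cell) and 4014 of 5709 in the CFA library (44432717 UMIs, median 6509.5). The hemoglobin limit removed 3178 PBS and 339 CFA barcodes that passed the other limits, and 2 kept barcodes occurred in both libraries. Of 37 clusters, 32 were named from markers into 17 classes, and unnamed clusters held 5.47% of PBS and 9.04% of CFA cells. At least 50 cells in each library were found in 10 classes: endothelial-like (752 PBS and 1060 CFA cells), fibroblast-like (530 and 370), Schwann-like (307 and 376), mural-like (179 and 222), tenocyte-like (153 and 110), B cell-like (209 and 150), immature neutrophil-like (66 and 223), erythroid-like (90 and 72), satellite-like (56 and 88) and chondrocyte-like (57 and 85). Macrophage-like cells (20 and 315), osteoclast-like macrophages (0 and 269), neutrophil-like cells (5 and 127) and progenitor-like cells (37 and 132) were too few in PBS to be compared. Orders of classes below are over classes with at least 50 cells in the library. The erythroid-like class stood apart, its median depth being 18430.5 UMIs in PBS and 2322.5 in CFA.

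**Figure D1:**
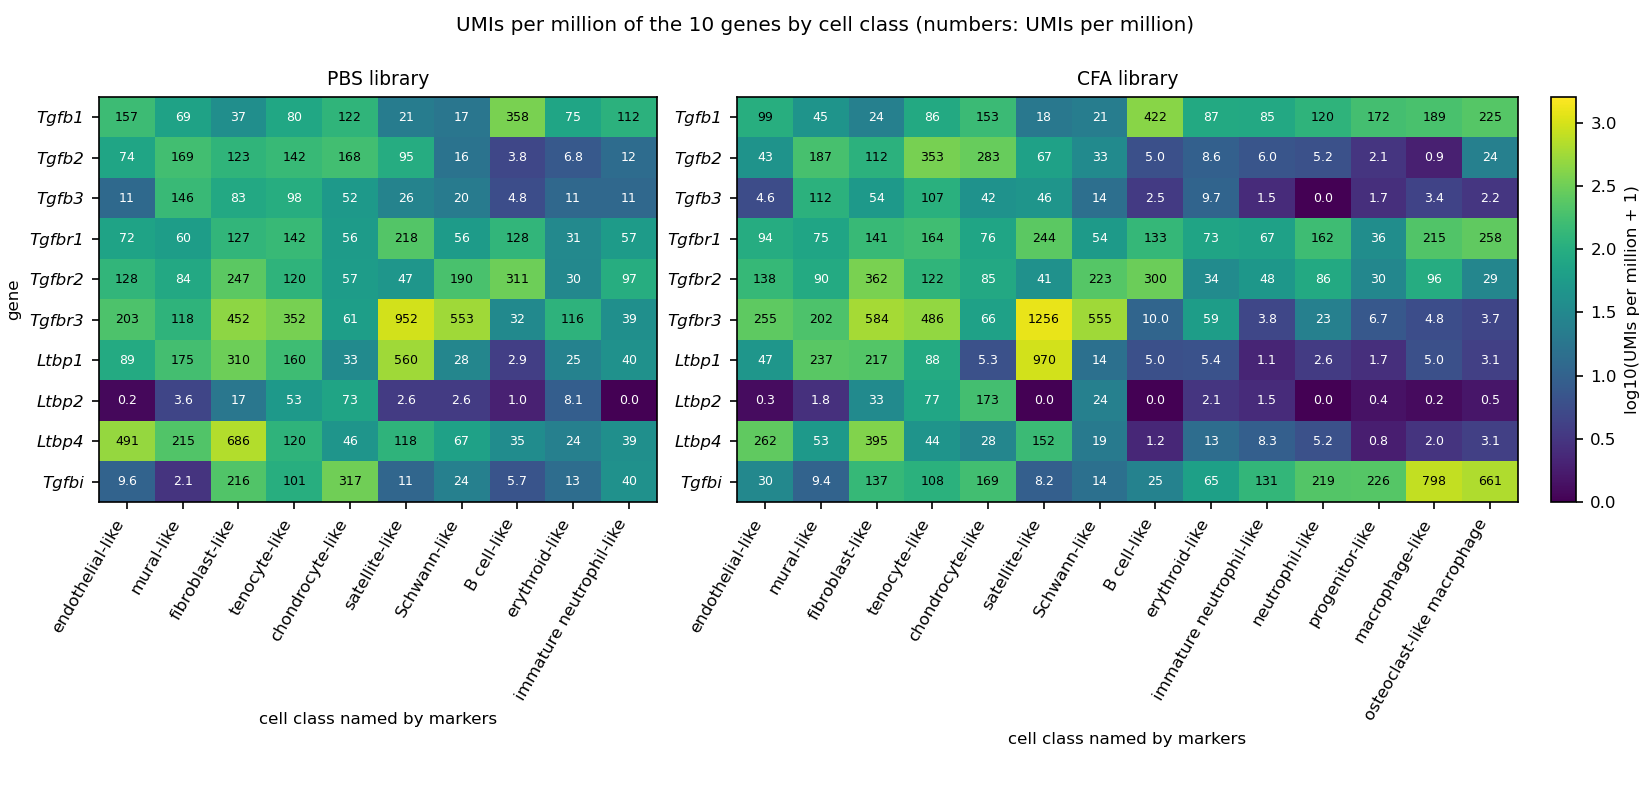
CPM (printed in each square, colour on a log10 scale after adding 1) of the 10 genes (rows) in the cell classes with at least 50 cells in the library (columns), PBS at left and CFA at right. Tgfbr3 and Ltbp1 peaked in satellite-like cells, Ltbp4 in fibroblast-like cells and Tgfb1 in B cell-like cells of both libraries, and Tgfbi peaked in macrophage-like cells of CFA (798).

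Of 100 pairs of a gene and a class, 89 held enough UMIs for a ratio. In CFA 15 of them were higher, 30 were lower and 44 were neither, that is 16.9% higher and 33.7% lower. Over all genes tested in the same classes 15% were higher and 14.5% lower. Without erythroid-like cells 13 were higher and 26 lower of 79, and without immature neutrophil-like cells as well 12 were higher and 21 lower of 71. Ltbp4 was lower in 9 of 10 classes and Ltbp1 in 6 of 9, and these storage genes gave 15 of the 30 lower ratios. Tgfbi gave 5 of the 15 higher ratios, and Tgfbr1 was past the fold in 1 of 10 classes.

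Endothelial-like cells had 1 higher and 5 lower of 9 genes, against 10.9% and 14.6% of all genes tested there, with a median ratio of 0.633 for the members and 0.992 for all genes. Fibroblast-like cells had 1 higher and 4 lower of 10 (12.8% and 14% of all genes), with medians of 0.798 and 0.984. Immature neutrophil-like cells had 1 higher and 5 lower of 8 (16.5% and 23.7%), with medians of 0.489 and 0.939. Their lower ratios other than that of Tgfbr2 rested on 9 to 29 PBS UMIs. The summed fibroblast markers of these cells were 2892 and 376 CPM, and their part was not tested. In these classes the median of the members lay below that of all genes.

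In the remaining classes the members' median was near or above that of all genes, except in erythroid-like and Schwann-like cells. Mural-like cells had 2 higher and 2 lower of 9 (10.5% and 12.3% of all genes; medians 1.11 and 0.995), tenocyte-like cells 1 and 2 of 10 (11.9% and 13.8%; 1.08 and 1.0), and chondrocyte-like cells 2 and 3 of 10 (13.3% and 16.9%; 1.17 and 0.952). Schwann-like cells had 2 and 3 of 10 (16.4% and 9%, medians 0.981 and 1.06), B cell-like cells 1 and 2 of 6 (10.7% and 12.2%, medians 1.0 and 1.01), and erythroid-like cells 2 and 4 of 10 (31.4% and 12.1%, medians 0.993 and 1.16). Satellite-like cells had 2 higher and 0 lower of 7 (17.3% and 19.9%), with medians of 1.28 and 0.962.

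**Figure D2:**
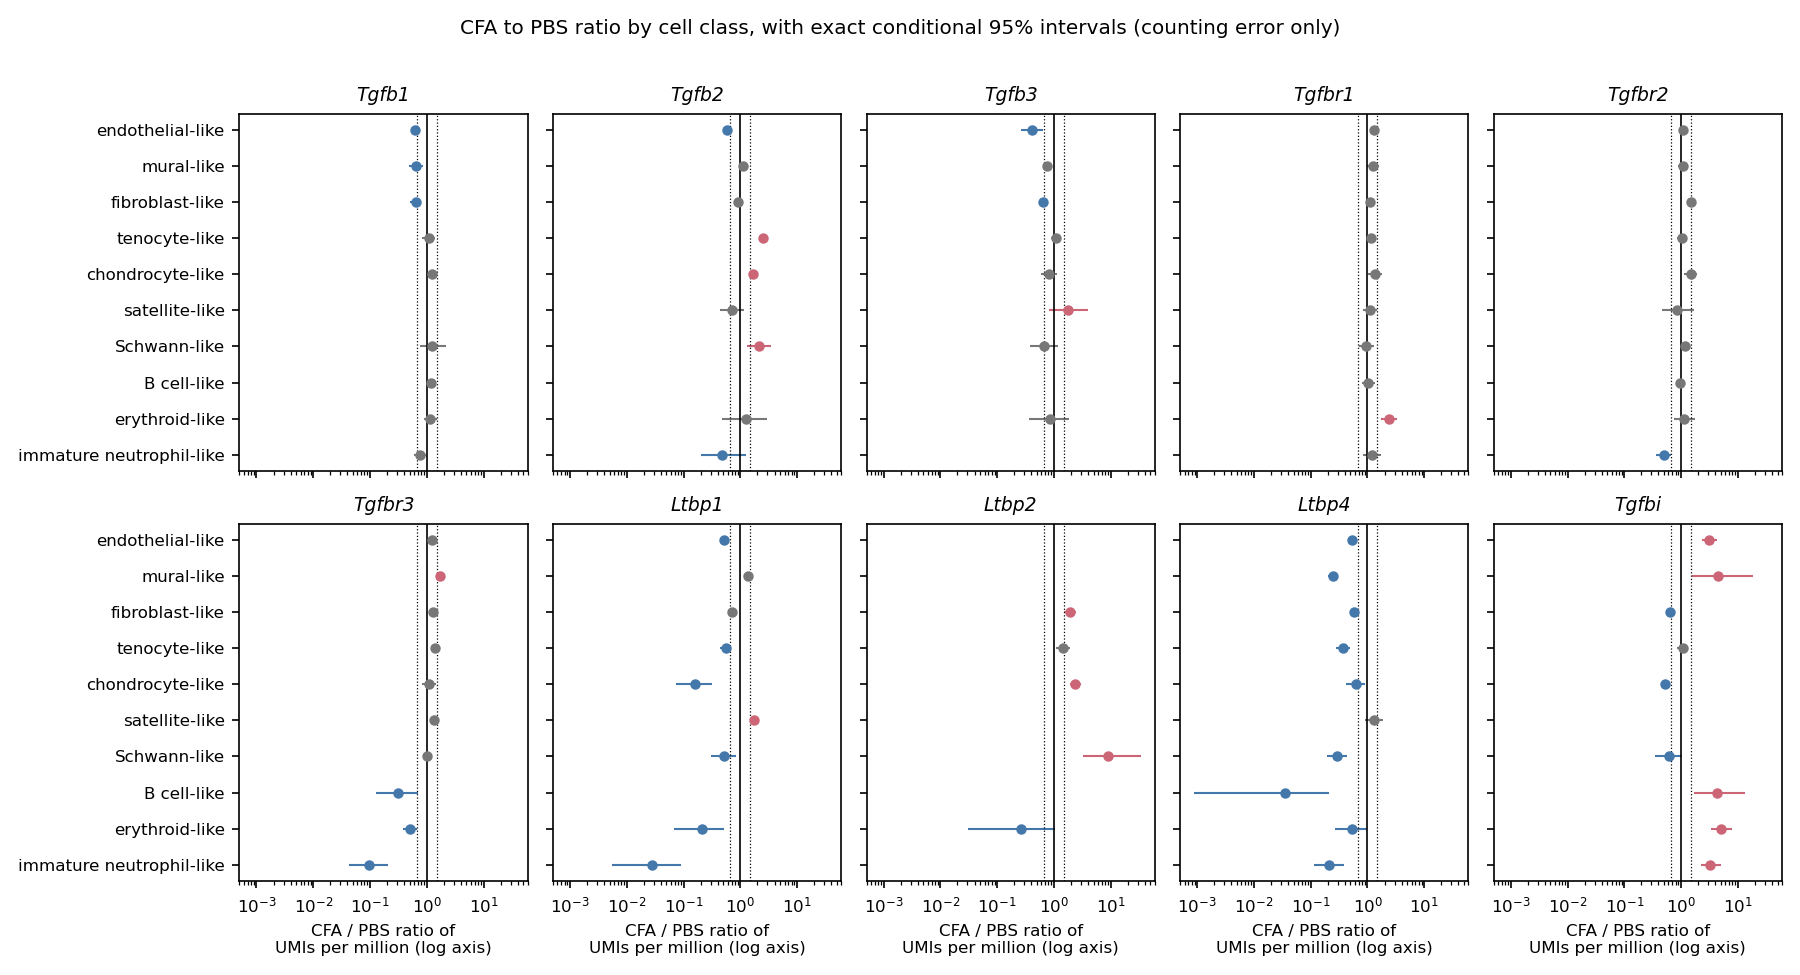
CFA to PBS ratio of CPM (horizontal, log axis) in each cell class with at least 20 UMIs of the gene (vertical), 1 panel per gene, with bars for exact conditional 95% intervals, a solid line at 1, dotted lines at 1.5-fold, and red, blue and grey points for higher, lower and neither. Ltbp4 points lay below the lower line in 9 of 10 classes, while Tgfbi points lay on both sides.

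Tgfb1, the ligand most associated with immune cells, had its highest level in B cell-like cells of both libraries, with 358 CPM in PBS (322 to 396) and 422 in CFA (378 to 469.6). Neither interval overlapped that of the next class of at least 50 cells. Endothelial-like cells came second among these in PBS with 157 (147 to 167). The smaller PBS classes of 18 lymphatic-like, 37 progenitor-like and 20 macrophage-like cells stood above them, with 257 (199.9 to 326), 241 (206 to 279) and 227 (175 to 291). In CFA osteoclast-like macrophages came second with 225 (216 to 235), ahead of macrophage-like cells with 189 (176 to 202) and progenitor-like cells with 172 (156 to 189), whose intervals overlapped. Chondrocyte-like cells held 122 and 153 (1.25, 1.04 to 1.52). Fibroblast-like, Schwann-like and satellite-like cells were at the low end in both libraries, satellite-like cells at 21 and 18 and Schwann-like cells at 17 and 21.5 CPM.

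Tgfb1 was lower in CFA in the vessel classes and in fibroblast-like cells. Endothelial-like cells held 157 and 99.2 CPM (0.633, 0.573 to 0.699), and the ratio was 0.669 with log-normalized counts merged without integration, which ended the call. Mural-like cells held 69 and 44.5 (0.646, 0.494 to 0.843), and fibroblast-like cells 37.2 and 23.7 (0.638, 0.511 to 0.793). With cells classed singly by their own markers these ratios were 0.814 and 1.0, inside the fold. The fibroblast-like ratio was also inside it with at least 1000 genes per cell (0.727), with 50 principal components (0.738) and with classes named without subtype markers (0.732). The summed level of 7 endothelial markers was also lower in CFA, 1526 and 658 CPM in mural-like and 174 and 25.2 in fibroblast-like cells, and their part in these results was not tested. In the other 6 classes with enough UMIs the ratio lay between 0.757 (immature neutrophil-like) and 1.26 (Schwann-like).

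The difference was uneven over the clusters of these classes. The capillary-like endothelial cluster (Gpihbp1, Aqp1) held 187 and 88.3 CPM (0.473, 0.369 to 0.60) of Tgfb1 and the venular-like cluster (Selp, Plvap) 151 and 95.1 (0.63, 0.523 to 0.759). The arterial-like cluster (Gja5, Sox17) held 129 and 111 (0.862, 0.674 to 1.1), an interval that includes 1. Endothelial-like clusters without a subtype name varied as well. The one led by Gm12002, with the capillary markers Car4 and Cd36 detected, held 88.9 and 78.1 (0.879, 0.594 to 1.3). The one led by Ccdc85a held 206 and 140 (0.682, 0.546 to 0.849), inside the fold. Among mural-like cells the cluster led by Myh11 held 80.6 and 44.3 (0.549, 0.398 to 0.754) and the cluster with Rgs5 among its leading genes 51.4 and 45.2 (0.879, 0.522 to 1.46). Of the fibroblast-like clusters the adventitial-like one (Pi16, Dpp4) was past the fold with 30.7 and 19.2 (0.624, 0.426 to 0.918). The cluster led by Apod and Gdf10 held 36 and 30.8 (0.855, 0.572 to 1.26) and the cluster led by Angptl1 and Cilp 26.1 and 25.3 (0.971, 0.557 to 1.65), both inside it. A lining-like cluster (Prg4) of 29 PBS and 6 CFA cells, too small to be compared, held 52 of the 228 PBS and 7 of the 132 CFA UMIs of the fibroblast-like class. Differences between clusters were not tested.

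The cells that held the Tgfb1 UMIs also differed between libraries. Endothelial-like cells held 30.5% (28.9 to 32.1) of 3068 UMIs in PBS and 11.6% (10.8 to 12.4) of 5948 in CFA. Osteoclast-like macrophages held 34.7% (33.5 to 35.9) in CFA, where they were 6.7% of cells and 20.6% of all UMIs, and macrophage-like cells held 14%. Over all cells Tgfb1 stood at 113 and 134 CPM, so the whole-library level was higher in CFA while the endothelial-like level was lower.

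Tgfb2, a ligand of mesenchymal and vascular tissue, was higher in CFA in the tendon and cartilage classes. Tenocyte-like cells held 142 and 353 CPM (2.48, 2.14 to 2.88), and chondrocyte-like cells held 168 and 283 (1.68, 1.44 to 1.96). Summed osteoblast markers were 29020 and 47948 CPM in chondrocyte-like and 23809 and 15417 in tenocyte-like cells. Summed neutrophil markers were 36.1 and 87.7 in chondrocyte-like and 57.4 and 3102 in tenocyte-like cells, and the part of these markers was not tested. Mural-like cells held 169 and 187 (1.11, 0.954 to 1.28) and fibroblast-like cells 123 and 112 (0.907, 0.814 to 1.01), both inside the fold. In PBS the intervals of mural-like (152 to 189), chondrocyte-like (148 to 191) and tenocyte-like cells (126 to 159) overlapped in turn. In CFA tenocyte-like cells (322 to 386) stood above chondrocyte-like (259 to 307) and these above mural-like cells (169.6 to 206).

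Cells with a Tgfb2 UMI made up 49.7% of tenocyte-like cells in PBS and 67.3% in CFA, at median depths of 10940 and 9942.5 UMIs. After every cell was thinned to 1000 UMIs the shares were 11.1% and 20%. In macrophage-like cells of the CFA library, at a median depth of 12320 UMIs, 1.27% of cells had a Tgfb2 UMI.

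Endothelial-like cells went the other way, with 74.3 and 42.9 CPM (0.578, 0.497 to 0.67) of Tgfb2, a ratio of 0.736 with classes named without subtype markers. Most of it lay in the arterial-like cluster, which held 244 and 130.1 (0.533, 0.434 to 0.653), while the capillary-like cluster held 13.4 and 1.88 (0.14, 0.0158 to 0.581). The Rgs5 mural-like cluster was higher in CFA with 126 and 204 (1.62, 1.23 to 2.13), and the Myh11 cluster was inside the fold with 198 and 181 (0.912, 0.765 to 1.09). The Schwann-like ratio of 2.1 (1.29 to 3.53) rested on 24 and 60 UMIs, of which 1 CFA cell held 24, and it was 0.991 after removal of the 5% of cells scored highest as doublets, 1.02 with cells classed singly and 1.07 as a mean over cells. The immature neutrophil-like ratio of 0.482 (0.201 to 1.24) rested on 9 and 16 UMIs, 13 of the latter in 1 cell, and was 0.993 as a mean over cells.

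The 250 bases before the RefSeq start of Tgfb2 are shown because this ligand differed in opposite directions between classes. They lie on the minus strand of chr1:186705990-186706239 (GRCm38.p6), and capitals mark TATAAA, the letters of the TATA box.
Tgfb2: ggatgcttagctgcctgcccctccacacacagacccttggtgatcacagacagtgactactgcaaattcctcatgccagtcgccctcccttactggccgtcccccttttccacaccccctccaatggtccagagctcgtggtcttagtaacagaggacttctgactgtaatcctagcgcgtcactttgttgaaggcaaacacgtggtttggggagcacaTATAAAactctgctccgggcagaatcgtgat
TATAAA was searched on both strands and occurred in 12.4% of 32851 promoters of this length. The match is a description of the letters and not evidence that the site is used.

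Tgfb3, a ligand of connective tissue, was highest in mural-like cells, with 146 and 112 CPM (0.771, 0.648 to 0.917). Tenocyte-like cells held 97.6 and 107 (1.09, 0.876 to 1.36), and their CFA interval (89.9 to 126) overlapped that of mural-like cells (98.8 to 127). Fibroblast-like cells were lower in CFA with 83.3 and 53.6 (0.643, 0.556 to 0.744), a call lost under 7 other settings (up to 0.844 with cells classed singly). Endothelial-like cells, which had little, were lower with 11.2 and 4.61 (0.41, 0.26 to 0.634), and their ratio was 0.776 without integration and 0.801 as a mean over cells. In endothelium the venular-like cluster went from 26 UMIs to 4, a ratio of 0.0837 (0.0212 to 0.241), and the capillary-like cluster from 18 to 4 (0.296, 0.0729 to 0.899). The endothelial-like cluster led by Ccdc85a was past the fold upwards on 12 and 16 UMIs (1.63, 0.724 to 3.78), an interval that includes 1. Satellite-like cells were past the fold upwards with 26.3 and 45.8 (1.74, 0.82 to 4.02) on 10 and 28 UMIs, an interval that includes 1.

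Among the receptors, Tgfbr1, the kinase that phosphorylates SMAD proteins, stayed inside the fold in 9 of 10 classes, where its ratio ran from 0.958 (Schwann-like) to 1.35 (chondrocyte-like). Endothelial-like cells held 71.6 and 94.5 CPM (1.32, 1.17 to 1.49). The exception was erythroid-like cells with 30.8 and 73 (2.37, 1.7 to 3.28), and that ratio was 0.889 with no hemoglobin limit and 1.27 after removal of the cells scored highest as doublets. Satellite-like cells were highest in PBS with 218 (174 to 271). In CFA osteoclast-like macrophages at 258 (248 to 269), satellite-like cells at 244 (206 to 286) and macrophage-like cells at 215 (202 to 229) overlapped in turn. The osteoclast-like macrophages held 37% of all Tgfbr1 UMIs in CFA and macrophage-like cells 14.9%, against 20.6% and 9.94% of the UMIs of all genes. Fibroblast-like cells held 33.1% of Tgfbr1 UMIs in PBS and 12.3% in CFA, against 22.5% and 12.5% of the UMIs of all genes. Their Tgfbr1 level was 127 and 141 CPM (1.11, 1.01 to 1.23).

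Tgfbr2, the receptor that binds ligand first, was highest, among classes of at least 50 cells, in B cell-like cells of PBS and in fibroblast-like cells of CFA. The 18 PBS and 12 CFA lymphatic-like cells held more, 583 and 641 CPM, with 51 of 110 CFA UMIs in 1 cell. B cell-like cells held 311 and 300.2 CPM (0.966, 0.814 to 1.14). Their cluster led by Vpreb1 was past the fold upwards with 237 and 373 (1.57, 1.07 to 2.34). The B cell-like cluster led by Agbl1 and Cd79a held 471 and 413 (0.878, 0.697 to 1.1). Fibroblast-like cells held 247 and 362 (1.47, 1.37 to 1.57) and chondrocyte-like cells 57.2 and 84.5 (1.48, 1.13 to 1.95), both just inside the fold with intervals above 1. The fibroblast-like ratio exceeded that of each cluster compared, 1.23 in the adventitial-like, 1.28 in the Apod and 0.939 in the Angptl1 cluster. The adventitial-like cluster, highest in Tgfbr2 with 379.8 and 466 CPM, gave 131 of 530 PBS and 161 of 370 CFA fibroblast-like cells, the Apod cluster 247 and 145 and the Angptl1 cluster 123 and 58. Schwann-like cells held 190.4 and 223 and endothelial-like cells 128 and 138. Immature neutrophil-like cells were the class past the fold, with 96.9 and 48 (0.496, 0.368 to 0.673).

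The macrophage classes of CFA differed in this receptor. Macrophage-like cells held 95.5 CPM of Tgfbr2 (86.6 to 105) and osteoclast-like macrophages 28.6 (25.2 to 32.3), although the latter had the higher Tgfbr1 level. Fibroblast-like cells with a UMI of both Tgfbr1 and Tgfbr2 were 48.5% (44.2 to 52.8) in PBS and 60.5% (55.4 to 65.6) in CFA, at median depths of 11330 and 12990 UMIs. In endothelial-like cells, at 5444.5 and 4391 UMIs, the shares were 18.5% (15.8 to 21.4) and 17% (14.8 to 19.4). Such shares depend on depth, so the classes are not ranked by them.

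Tgfbr3, the coreceptor betaglycan, was highest in satellite-like cells, the stem cells of skeletal muscle, with 952 and 1256 CPM (1.32, 1.16 to 1.5). After thinning to 1000 UMIs, 46.4% of PBS and 70.1% of CFA satellite-like cells had a UMI of it, against 0.643% of CFA macrophage-like cells. Schwann-like cells held 553 and 555 (1.0, 0.916 to 1.1), fibroblast-like cells 452 and 584 (1.29, 1.23 to 1.36) and tenocyte-like cells 352 and 486 (1.38, 1.24 to 1.53). In CFA the fibroblast-like and Schwann-like intervals (564 to 604 and 522 to 591) overlapped, and in PBS they did not.

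Mural-like cells, the muscle cells and pericytes of vessel walls, were the class in which Tgfbr3 was past the fold upwards, with 118 and 202 CPM (1.71, 1.45 to 2.01). The ratio was inside the fold under 4 other settings, 1.44 with a mitochondrial limit of 20%, 1.4 without integration, 1.44 as a mean over cells and 1.14 with cells classed singly. Of the clusters, the Myh11 cluster held 91.8 and 169.8 (1.85, 1.47 to 2.33) and the Rgs5 cluster 158 and 288 (1.82, 1.44 to 2.31). Tgfbr3 was past the fold downwards in B cell-like (31.6 and 9.96), erythroid-like (116 and 59.1) and immature neutrophil-like cells (38.7 and 3.75). The B cell-like ratio of 0.316 was 0.998 as a mean over cells, and the erythroid-like ratio of 0.507 was 0.728 with 50 principal components. The summed level of 6 fibroblast markers in the same B cell-like cells was 1641 and 94.7 CPM, in immature neutrophil-like cells 2892 and 376 and in erythroid-like cells 84.7 and 398, and their part in these results was not tested.

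Ltbp4, which binds latent TGF-beta and takes part in elastic fibre assembly, was lower in CFA in more classes than any other member. Among classes of at least 50 cells fibroblast-like cells were highest, with 686 and 395 CPM (0.575, 0.546 to 0.605), a ratio of 0.747 as a mean over cells. The few lymphatic-like cells held 901 and 402 CPM, above fibroblast-like cells in PBS and overlapping them in CFA (313 to 509 against 378 to 411). Endothelial-like cells followed with 491 and 262 (0.534, 0.504 to 0.567). Mural-like cells held 215 and 52.6 (0.245, 0.198 to 0.301), tenocyte-like cells 120.1 and 44.4 (0.37, 0.274 to 0.492) and Schwann-like cells 66.7 and 19.3 (0.289, 0.191 to 0.428). Chondrocyte-like cells held 45.6 and 28.4 (0.621, 0.426 to 0.902), and their ratio was inside the fold under 4 other settings (0.671 to 0.91). The median ratio over 10 classes was 0.445, and satellite-like cells, with 118 and 152 (1.28, 0.89 to 1.88), were the class inside the fold.

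The shares of cells followed the levels. After thinning to 1000 UMIs, an Ltbp4 UMI was left in 35.6% (PBS) and 21.6% (CFA) of endothelial-like cells, and in 39.2% and 30.4% of fibroblast-like cells. Unthinned, the shares were 80.7% and 59.1% of endothelial-like and 87.5% and 84.1% of fibroblast-like cells. Macrophage-like cells in CFA, at a median depth of 12320 UMIs, had an Ltbp4 UMI in 2.22%.

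By cluster, Ltbp4 was lower in 13 and higher in 0 of 16 clusters with enough cells and UMIs, against 10.5% to 22.8% of all genes per cluster that were lower. In the Myh11 mural-like cluster it stood at 268 and 43.1 CPM (0.161, 0.122 to 0.209) and in the Rgs5 cluster at 135 and 77.5 (0.574, 0.399 to 0.815). The adventitial-like fibroblast cluster (Pi16, Dpp4) held 888 and 375 (0.422, 0.391 to 0.456), whereas the fibroblast-like cluster led by Apod and Gdf10 held 591 and 465 (0.786, 0.713 to 0.866). In endothelium the capillary-like cluster held 551 and 188 (0.341, 0.29 to 0.398), the venular-like cluster 461 and 211 (0.456, 0.407 to 0.512) and the arterial-like cluster 653 and 582 (0.891, 0.801 to 0.991). Of these 3 endothelial-like clusters the arterial-like one had the highest level in both libraries and the ratio nearest 1. The Gm12002 endothelial-like cluster held 396 and 222 (0.56, 0.455 to 0.687) and the Ccdc85a cluster 384 and 180 (0.47, 0.39 to 0.563).

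Immature neutrophil-like cells held 38.7 and 8.25 CPM (0.213, 0.116 to 0.386) of Ltbp4 and erythroid-like cells 24 and 12.9 (0.536, 0.265 to 0.995). In B cell-like cells the Ltbp4 ratio of 0.0352 (0.000868 to 0.209) came from 37 UMIs in PBS, 26 of them in 1 cell, and 1 in CFA, and it was 0.35 without the cell with the most UMIs in each library. The summed fibroblast markers were also lower in CFA in B cell-like (1641 and 94.7 CPM), immature neutrophil-like (2892 and 376) and Schwann-like cells (2395 and 969). They were lower too in endothelial-like (637 and 187) and mural-like cells (2610.1 and 1661), and higher in erythroid-like cells (84.7 and 398). The summed endothelial markers were lower in mural-like cells (1526 and 658), and the part of these markers in the results was not tested. For fibroblast-like cells themselves the fibroblast marker sum was 30755 and 28372 CPM.

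**Figure D3:**
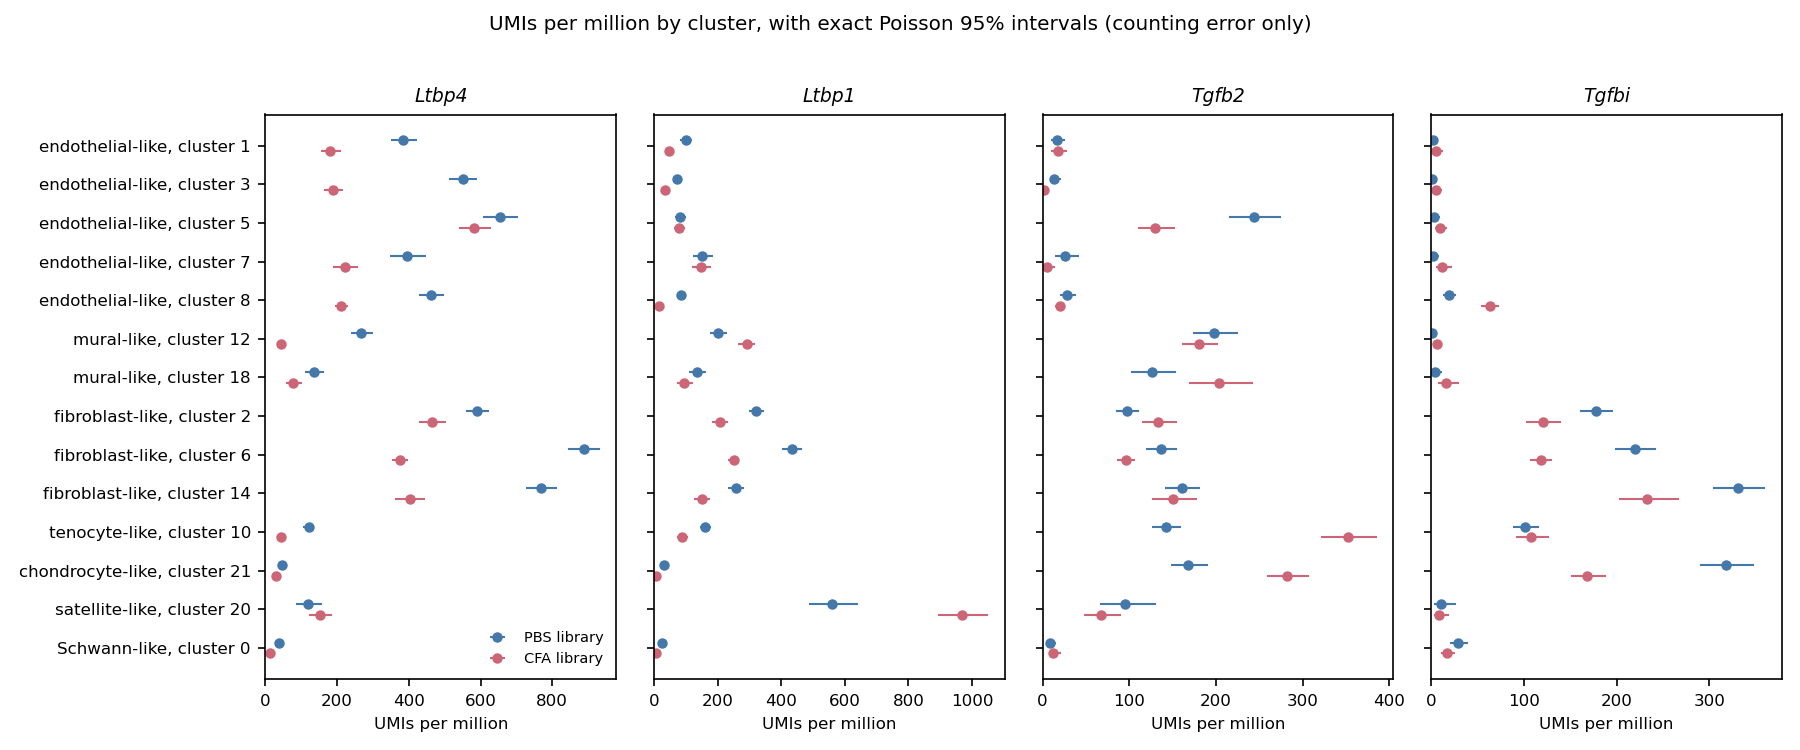
CPM (horizontal) of Ltbp4, Ltbp1, Tgfb2 and Tgfbi in stromal, vascular, muscle and glial clusters (vertical), PBS in blue and CFA in red, with bars for exact Poisson 95% intervals; cluster 3 is capillary-like, 5 arterial-like, 8 venular-like, 12 the Myh11 and 18 the Rgs5 mural-like cluster, 2 the Apod and 6 the adventitial-like fibroblast cluster. Ltbp4 was lower in CFA in each cluster shown except the satellite-like one, and its gap was narrow in the arterial-like cluster (653 and 582).

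Ltbp1, a carrier of latent TGF-beta, was highest in satellite-like cells, with 560.4 and 969.7 CPM (1.73, 1.48 to 2.03). Their intervals (488 to 641 in PBS and 893 to 1051 in CFA) did not overlap that of the next class in either library. Satellite-like cells were 2.19% of CFA cells and held 19.3% (17.9 to 20.7) of the Ltbp1 UMIs there. After thinning to 1000 UMIs, 25% of PBS and 55.2% of CFA satellite-like cells had an Ltbp1 UMI.

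Mural-like cells held 175 and 237 CPM (1.35, 1.18 to 1.55) of Ltbp1, inside the fold. Their clusters differed in direction, with 202 and 291 (1.44, 1.23 to 1.69) in the Myh11 cluster and 135 and 93.7 (0.694, 0.495 to 0.965) in the Rgs5 cluster. In the Myh11 cluster Ltbp1 was thus higher in CFA while Ltbp4 was lower.

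In the other classes with enough UMIs Ltbp1 was lower in CFA. Tenocyte-like cells held 160.3 and 88.1 (0.55, 0.442 to 0.68), endothelial-like cells 88.9 and 46.7 (0.525, 0.456 to 0.604) and chondrocyte-like cells 32.7 and 5.25 CPM (0.161, 0.0724 to 0.321). The venular-like cluster held 85.6 and 16.7 (0.195, 0.135 to 0.277), while the arterial-like cluster held 82.3 and 79.3 (0.964, 0.713 to 1.3). The capillary-like cluster held 73.3 and 34.7 (0.474, 0.316 to 0.696). Of the endothelial-like clusters without a subtype name, the Ccdc85a cluster held 100.7 and 46.5 (0.461, 0.317 to 0.661). The Gm12002 cluster held 150 and 148 (0.983, 0.736 to 1.31). Fibroblast-like cells as a class held 309.7 and 217 (0.702, 0.653 to 0.755), inside the fold, although each of the 3 fibroblast-like clusters with enough cells was past it, with ratios of 0.578, 0.584 and 0.646. The Schwann-like ratio of 0.509 (0.30 to 0.847) rested on 43 and 26 UMIs and was 0.902 with no hemoglobin limit, 0.669 with a mitochondrial limit of 20% and 1.07 with cells classed singly. In immature neutrophil-like cells there were 29 UMIs in PBS, 19 of them in 1 cell, and 3 in CFA (0.0281, 0.00547 to 0.0905), and in erythroid-like cells 75 and 5 (0.211, 0.0667 to 0.516). The erythroid-like ratio was 0.817 with 50 principal components and 0.89 as a mean over cells.

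The upstream one of the RefSeq starts of Ltbp1 is shown because Ltbp1 was the storage gene that was higher in one class and lower in most others, and because its window was the only one of 12 matched promoters, from 8 of the 10 genes, with a full cyclic AMP response element, TGACGTCA. The bases lie on the plus strand of chr17:75005279-75005528 (GRCm38.p6), and capitals mark the element, which begins 73 bases before the start.
Ltbp1: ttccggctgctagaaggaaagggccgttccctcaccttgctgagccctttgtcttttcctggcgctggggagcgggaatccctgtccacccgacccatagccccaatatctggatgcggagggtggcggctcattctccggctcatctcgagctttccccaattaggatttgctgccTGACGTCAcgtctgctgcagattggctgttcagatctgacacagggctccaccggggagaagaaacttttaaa
TGACGTCA, which reads the same on both strands, occurred in 1.55% of 32851 promoters of this length. This match too describes the letters only and is not evidence that the element is used. The AP-1 letters TGANTCA (6.75% of all promoters) and the SMAD palindrome GTCTAGAC (0.167%) were searched on both strands and were found in none of the matched windows, which says only that these letters are not there.

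Ltbp2, a matrix protein of the same family that is not known to bind latent TGF-beta, had most of its UMIs in the skeletal connective tissue classes. Chondrocyte-like cells held 72.9 and 173 CPM (2.38, 1.91 to 2.98), with 28 of 107 UMIs in 1 PBS cell and 94 of 330 in 1 CFA cell. Tenocyte-like cells held 53.1 and 77 (1.45, 1.1 to 1.91), just inside the fold. Fibroblast-like cells held 17.3 and 32.7 (1.89, 1.48 to 2.43). Their ratio was 1.499 with a mitochondrial limit of 20%, just inside the fold. The adventitial-like cluster had 5 and 63 UMIs (6.96, 2.83 to 22.2). Chondrocyte-like cells held 47.8% (44 to 51.6) of all Ltbp2 UMIs in CFA while being 2.12% of its cells.

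Erythroid-like cells were lower, with 24 and 2 UMIs (0.264, 0.0303 to 1.06). Endothelial-like cells had 1 Ltbp2 UMI in PBS and 2 in CFA. The Schwann-like ratio of 9.04 (3.29 to 34.7) rested on 4 and 43 UMIs and was 1.01 with cells classed singly. The myelinating Schwann-like cluster (Mbp) had 0 and 1 of them, and the cluster led by Fabp7, with 3 PBS and 16 CFA cells, had 1 and 41. That cluster was too small in PBS to be compared on its own.

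Tgfbi was highest in the macrophage classes of the CFA library. Macrophage-like cells held 798 CPM (772 to 825) and osteoclast-like macrophages 661 (645 to 678), and progenitor-like and neutrophil-like cells followed with 226 and 219. Osteoclast-like macrophages held 47.2% (46.3 to 48) and macrophage-like cells 27.5% (26.7 to 28.2) of 12852 Tgfbi UMIs in CFA. In PBS fibroblast-like cells held 53.2% (51.3 to 55.2) of 2489, and in CFA 5.92%. Of the UMIs of all genes, osteoclast-like macrophages held 20.6% and macrophage-like cells 9.94% in CFA. Fibroblast-like cells held 22.5% of these in PBS and 12.5% in CFA. Over all cells the level was 91.5 and 289 CPM.

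In the connective tissue classes themselves Tgfbi was lower or inside the fold. Chondrocyte-like cells, the highest compared class in PBS, held 317 and 169 CPM (0.531, 0.459 to 0.613), a ratio of 0.896 without integration. Fibroblast-like cells held 216 and 137 (0.632, 0.578 to 0.692), a call lost under 4 other settings (0.672 to 0.798), and tenocyte-like cells 101 and 108 (1.07, 0.857 to 1.32). Among fibroblast-like clusters the ratio was 0.538 in the adventitial-like cluster, 0.678 in the Apod cluster and 0.705 in the cluster led by Angptl1 and Cilp. The Schwann-like ratio of 0.607 (0.352 to 1.03) was 1.33 as a mean over cells and 0.68 without the cell with the most UMIs in each library.

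Tgfbi was past the fold upwards in 5 classes. Endothelial-like cells held 9.56 and 30.3 CPM (3.16, 2.35 to 4.32), mural-like cells 2.06 and 9.35 (4.54, 1.53 to 18.2), immature neutrophil-like cells 40.1 and 131 (3.27, 2.24 to 4.96) and erythroid-like cells 12.9 and 65.5 (5.09, 3.34 to 7.84), a ratio of 1.18 with no hemoglobin limit. B cell-like cells held 5.74 and 24.9 (4.34, 1.68 to 13.2), with 12 of 20 CFA UMIs in 1 cell. Satellite-like cells had too few UMIs for a ratio (10.5 and 8.18 CPM). The 6 macrophage markers, none of which was at 0 in CFA except 1 in mural-like cells, summed to 17.8 and 37 CPM in endothelial-like, 5.15 and 38.8 in mural-like, 129 and 634 in immature neutrophil-like, 7.45 and 227 in erythroid-like and 10.5 and 67.3 in B cell-like cells, and their part in the result was not tested. Cells with a Tgfbi UMI made up 0.957% of B cell-like cells in PBS and 6.0% in CFA, at median depths of 3734 and 4051 UMIs, and 3.19% and 7.92% of endothelial-like cells, at 5444.5 and 4391. B cells are not known for this gene.

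Within endothelium the venular-like cluster held 27 of 57 Tgfbi UMIs in PBS and 167 of 210 in CFA, which is 18.8 and 63.3 CPM (3.37, 2.23 to 5.26). In CFA the capillary-like cluster held 5.63 and the arterial-like cluster 9.48. Per macrophage marker UMI there were 0.817 Tgfbi UMIs in CFA endothelial-like cells, 0.37 in B cell-like and 0.289 in erythroid-like cells. Mural-like cells held 0.241 and immature neutrophil-like cells 0.207, against 0.123 in macrophage-like cells and 0.494 in osteoclast-like macrophages. In PBS the values were 0.538 in endothelial-like, 0.545 in B cell-like, 1.73 in erythroid-like, 0.4 in mural-like and 0.312 in immature neutrophil-like cells. Summed neutrophil markers were 117 and 264 CPM in endothelial-like and 123 and 281 in B cell-like cells. They were 28.4 and 438 in erythroid-like and 74.1 and 2100 in mural-like cells, and their part was not tested.

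**Figure D4:**
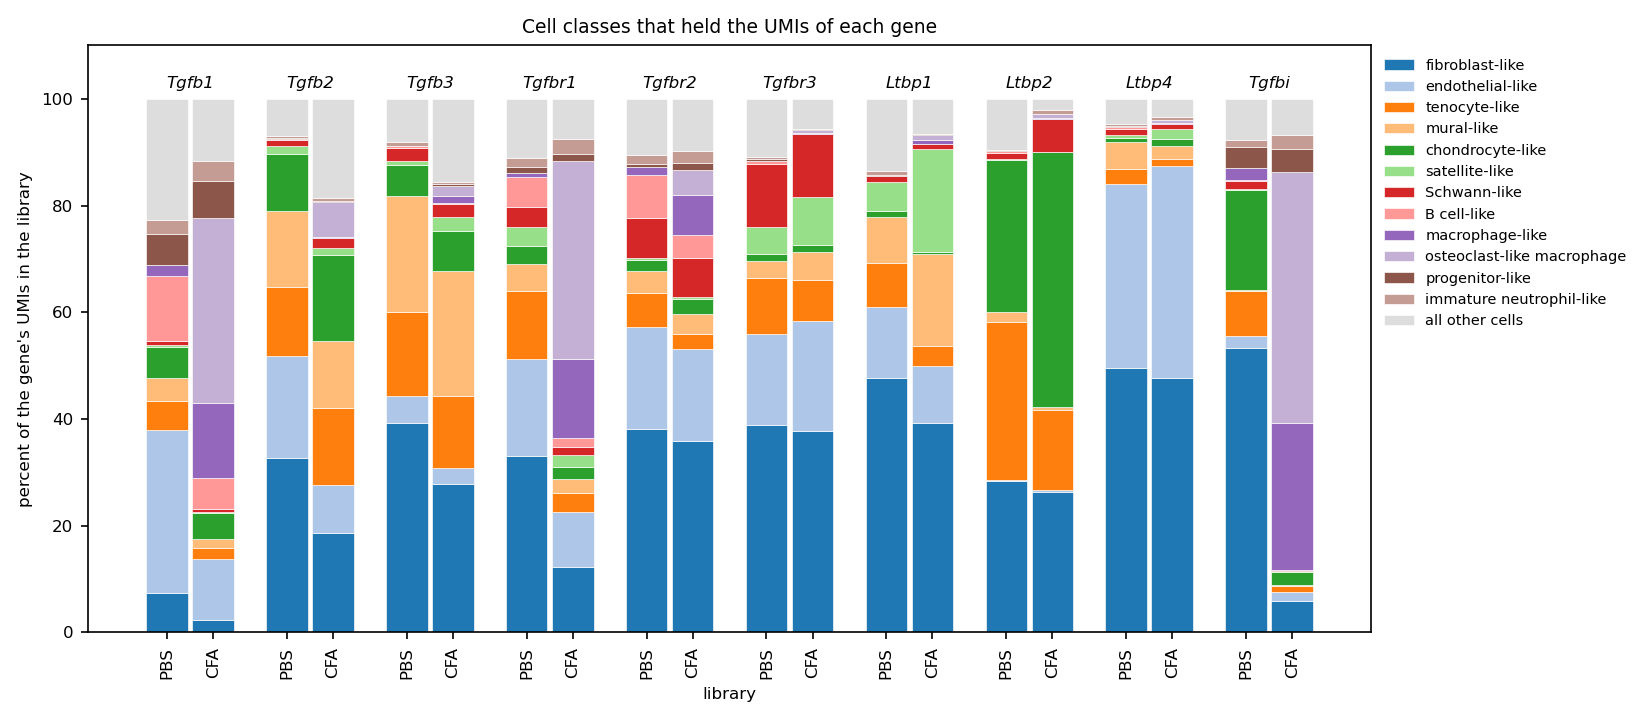
Percent of the UMIs of each gene in a library (vertical) held by each cell class (colours), with a PBS and a CFA bar for each gene. Osteoclast-like macrophages held 34.7% of Tgfb1, 37% of Tgfbr1 and 47.2% of Tgfbi in CFA, where they held 20.6% of the UMIs of all genes. Fibroblast-like and endothelial-like cells filled most of both Ltbp4 bars.

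Which class held most UMIs of a gene was the same in both libraries for some members. Fibroblast-like cells led for Ltbp4 (49.5% in PBS and 47.7% in CFA), Ltbp1 (47.6% and 39.3%), Tgfbr2 (38.1% and 35.9%), Tgfbr3 (38.9% and 37.7%), Tgfb3 (39.2% and 27.8%) and Tgfb2 (32.6% and 18.7%), while being 19.9% of PBS and 9.22% of CFA cells. Their share of Tgfb2 in CFA (17.4 to 20) overlapped those of unnamed cells, 17.7% (16.4 to 19.1), and of chondrocyte-like cells, 16.2% (14.9 to 17.5). Unnamed cells held 5.02% of Tgfb2 and 2.38% of Tgfb3 in PBS, and 12.4% of Tgfb3 in CFA. For Tgfb1, Tgfbr1 and Tgfbi the leading class in CFA was the osteoclast-like macrophages, of which no cell was kept in PBS. Whether the tissue held more macrophages or fewer were removed by the depletion cannot be told apart from these libraries. In stained sections the paper reported a larger Iba1-positive macrophage area in CFA joints and more Cathepsin K-positive cells in subchondral bone. Macrophage-like cells held 1.02% of all PBS UMIs, with 2.29% of Tgfbi and 0.682% of Tgfbr1 UMIs there. In CFA they held 9.94% of all UMIs, with 27.5% of Tgfbi and 14.9% of Tgfbr1.

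The pathway around these members was followed through 47 other genes in 5 groups by role, which gave 403 ratios. Of these 68 were higher and 96 lower, 16.9% and 23.8%, against 15% and 14.5% of all genes. The SMAD genes, which carry the signal, had 4 higher and 2 lower of 47 and a median ratio of 1.06. The regulators, among them the feedback genes Skil and Pmepa1, had 17 and 2 of 69 with a median of 1.17. Storage and activation genes had 17 and 18 of 113, and coreceptors and related receptors 7 and 8 of 40. Genes known to respond to TGF-beta, mostly genes of the matrix and the contractile apparatus, had 23 and 66 of 134 with a median of 0.68. By class that median ran from 0.0919 (B cell-like) to 1.2 (erythroid-like), with 1.11 in fibroblast-like and 1.0 in tenocyte-like cells.

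Of the responding genes in fibroblast-like cells, 6 were higher and 2 lower of 15 (against 12.8% and 14% of all genes). In tenocyte-like cells the counts were 4 and 3 of 15 (against 11.9% and 13.8% of all genes) and in chondrocyte-like cells 3 and 5 of 15 (against 13.3% and 16.9% of all genes). In endothelial-like cells they were 1 and 10 of 15 (against 10.9% and 14.6% of all genes), in Schwann-like cells 0 and 11 of 15 (against 16.4% and 9% of all genes), in satellite-like cells 2 and 7 of 11 (against 17.3% and 19.9% of all genes) and in B cell-like cells 0 and 7 of 7 (against 10.7% and 12.2% of all genes). Immature neutrophil-like cells had 1 and 12 of 14 (against 16.5% and 23.7% of all genes). Mural-like cells had 2 and 5 of 15 (against 10.5% and 12.3%) and erythroid-like cells 4 and 4 of 12 (against 31.4% and 12.1%). Differences between classes were not tested. The lower genes in B cell-like cells included the collagen genes Col1a1 (660.0 and 53.6 CPM, with 463 of 690 PBS UMIs in 1 cell) and Col3a1 (590.1 and 34.9), which B cells are not known to use. Col3a1 and Col1a2 were also fibroblast markers, and Acta2 and Tagln mural markers, in the naming of classes. Summed fibroblast markers were 1641 and 94.7 CPM in B cell-like and 2892 and 376 in immature neutrophil-like cells. In Schwann-like cells they were 2395 and 969, in endothelial-like cells 637 and 187 and in satellite-like cells 1579 and 1359. Erythroid-like cells went the other way (84.7 and 398), and the part of these markers was not tested.

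In fibroblast-like cells the highest ratios of the pathway list were those of Timp1, an inhibitor of matrix proteases, at 115 and 480.3 CPM (4.17, 3.84 to 4.54), of Tnc, the matrix glycoprotein tenascin C, at 47.7 and 173 (3.62, 3.18 to 4.15), and of Nrros, a partner of latent TGF-beta in myeloid cells, at 1.96 and 7.02 (3.58, 1.84 to 7.51), with 14 of 39 CFA UMIs in 1 cell. The lowest were those of Fbn2, a microfibril protein, at 55.4 and 8.45 (0.153, 0.11 to 0.208), and of the contractile genes Acta2 at 121 and 41.9 (0.348, 0.299 to 0.403), with 310 of 738 PBS UMIs in 1 cell, and Tagln at 59.1 and 31.1 (0.526, 0.436 to 0.633). Matrix and storage genes of these cells therefore lay on both sides.

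Endothelial-like cells had their highest ratio in Thbs1, whose product thrombospondin 1 can activate latent TGF-beta, at 17.6 and 99.2 CPM (5.63, 4.58 to 6.99). The integrin gene Itgb3 stood at 4.03 and 17.9 (4.44, 2.85 to 7.18) and Timp1 at 5.37 and 13.7 (2.55, 1.69 to 3.93). Their lowest ratios were in the matrix genes Col5a1 (20.3 and 3.31), Postn (19.1 and 3.46) and Loxl2 (12.8 and 2.88), beside the lower fibroblast marker sum of this class given above. Mural-like cells were highest in Timp1 (11.8 and 25.8), Ccn2 (128 and 204) and Itgb8 (4.12 and 6.24), and lowest in Col1a1 (798 and 302) and in the receptor genes Acvrl1 (59.7 and 24.5) and Eng (152 and 69).

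Chondrocyte-like cells, in which Tgfb2 and Ltbp2 were higher, had among their highest pathway ratios those of Tgif1, a repressor of SMAD targets, at 3.41 and 16.8 CPM (4.93, 1.91 to 16.2), and of Ccn2, a matricellular protein of cartilage, at 185 and 604 (3.27, 2.87 to 3.75). Their lowest were Tagln at 125 and 1.05 (0.00838, 0.00101 to 0.0307), with 108 of 184 PBS UMIs in 1 cell, Acta2 at 670.4 and 50.9 (0.076, 0.061 to 0.0937) and Fbn1 at 62 and 12.6 (0.203, 0.124 to 0.322). Tenocyte-like cells were highest in Tgif1 (12.4 and 24.4), Cd109 (54.1 and 106) and Ccn2 (153 and 298), and lowest in Tagln (201 and 46.7), Acvrl1 (15.3 and 5.18) and Acta2 (428 and 194). Tgif1 and Ccn2 were among the highest ratios in both of these classes.

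Satellite-like cells, highest in Ltbp1 and Tgfbr3, held among their highest ratios those of Bambi, a decoy receptor, at 21 and 62.1 CPM (2.95, 1.36 to 7.33), and of Ccn2 at 23.7 and 58.9 (2.49, 1.17 to 5.87). Their lowest ratios were those of the collagen genes Col1a1 (86.8 and 32.7), Col3a1 (1137 and 428) and Col1a2 (60.5 and 24.5). Schwann-like cells were highest in Pmepa1 at 123 and 290.1 (2.36, 1.99 to 2.8), Itgb3 (17.7 and 35.2) and Bambi (24.2 and 41.8), and their lower ratios included those of Col3a1 (631 and 154) and Tnc (32.7 and 10.5).

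In the blood cell classes 5 of the pathway genes were higher and 9 lower of 26 (10.7% and 12.2% of all genes) in B cell-like, 15 and 5 of 39 (31.4% and 12.1% of all genes) in erythroid-like, and 3 and 19 of 40 (16.5% and 23.7% of all genes) in immature neutrophil-like cells. The highest in B cell-like cells were Itgb5 (7.65 and 14.9 CPM), Pmepa1 (10.5 and 19.9) and Skil (76.5 and 142). The lowest in immature neutrophil-like cells were Tagln (502 and 4.5) and Acta2 (826 and 19.5), with 354 of 363 and 533 of 597 PBS UMIs in 1 cell.

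**Figure D5:**
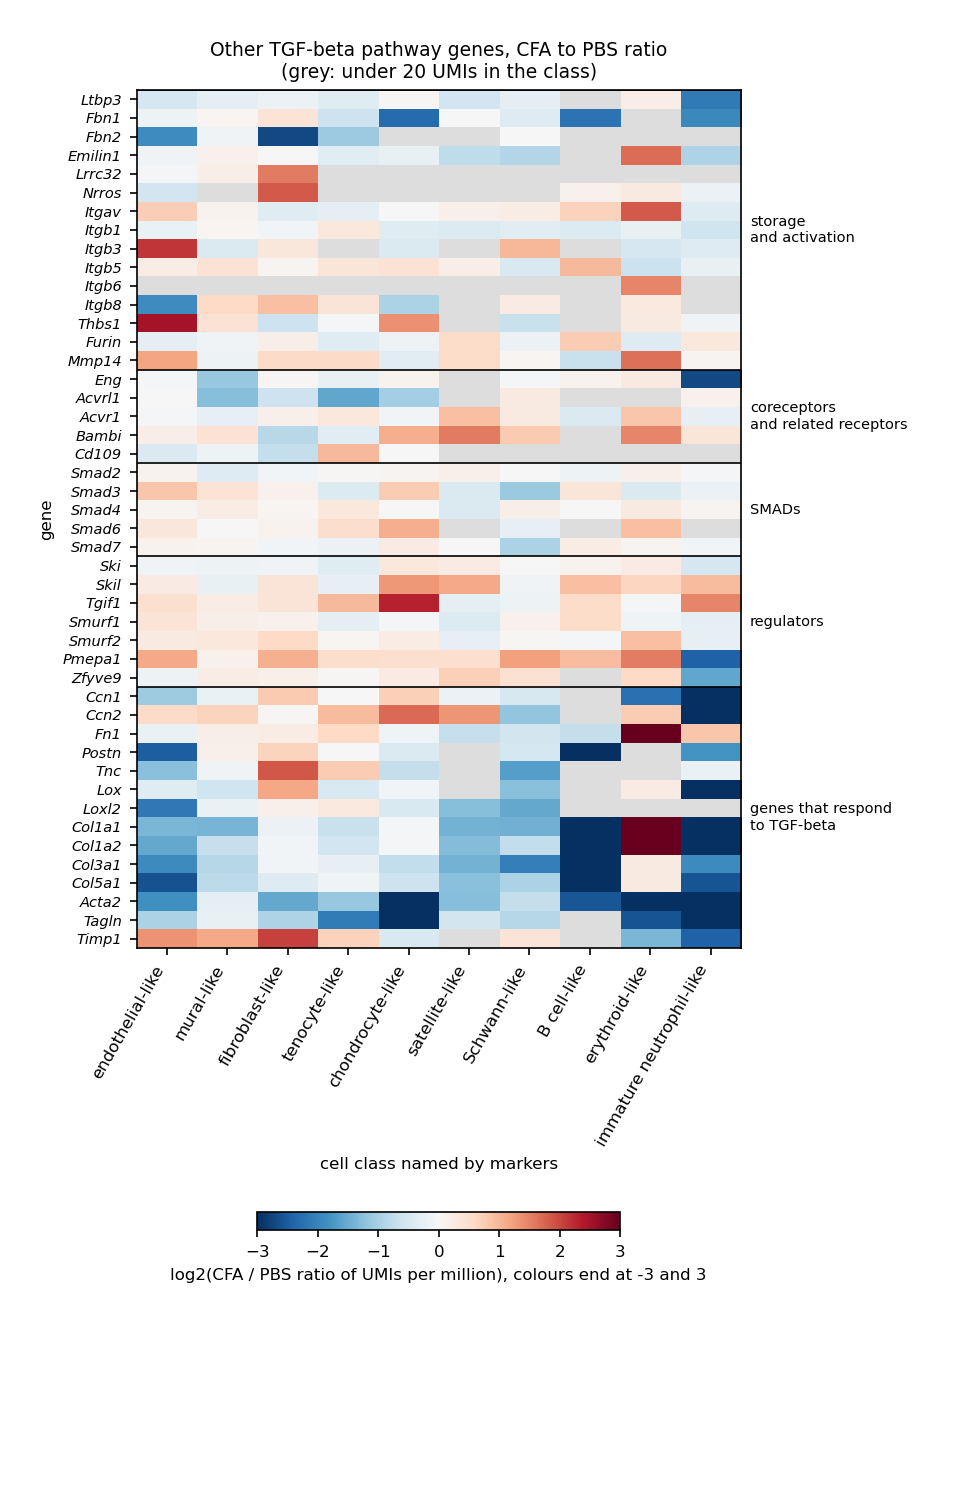
Log2 of the CFA to PBS ratio (colour, red higher and blue lower in CFA, ending at -3 and 3) of the other TGF-beta pathway genes (rows, grouped by role, all but 1 of the 47 shown) in the 10 compared classes (columns), with grey for under 20 UMIs. The SMAD rows were mostly pale, and the rows of responding genes held most of the darkest squares, mostly blue in B cell-like and immature neutrophil-like cells and red for Fn1, Col1a1 and Col1a2 in erythroid-like cells.

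For each member the genes with the most similar profile were sought among 5806 genes, by the Pearson correlation of log2 levels over 10 PBS classes and over 14 CFA classes, averaged over both libraries. The classes of a library share its preparation and depth and are few, so the values are descriptions. Ltbp4 was closest to Cd34, Ramp2 and Fbln2 (0.936, 0.935 and 0.929), Ltbp1 to Ccl19, Flnc and B3galt1 (0.936, 0.929 and 0.91), and Ltbp2 to Spon2, Rbp4 and Aldh1a3 (0.953, 0.948 and 0.936). Tgfbi was closest to Ctsh, Npc2 and Hexa (0.929, 0.89 and 0.889), genes of lysosomal proteins. Among ligands Tgfb1 was closest to Pfkfb3, Ube2a and Clic1 (0.85, 0.845 and 0.843), Tgfb2 to Calu, Pkd1 and Rbfox2 (0.933, 0.929 and 0.922), and Tgfb3 to Setbp1, Sdc2 and Prrx1 (0.942, 0.938 and 0.927). The receptor Tgfbr1 was closest to Spty2d1, Clcn5 and Skil (0.786, 0.765 and 0.719), Tgfbr2 to Cers5, Kdm4c and Prkce (0.821, 0.805 and 0.802), and Tgfbr3 to Tln2, Eda and Nfia (0.938, 0.931 and 0.912). By Spearman correlation no gene of these lists was kept for Tgfb1, Tgfb2, Ltbp1 and Ltbp2. For the other members some genes were kept (Hexa for Tgfbi) and others changed, so the lists depend on the measure.

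In the GENCODE vM21 annotation of GRCm38, Tgfb1 lies at chr7:25687002-25705077 on the plus strand and Ltbp4 at chr7:27305136-27337692 on the minus strand. Tgfb2 lies at chr1:186622792-186705989 (minus), Tgfb3 at chr12:86056745-86079041 (minus) and Ltbp2 at chr12:84783212-84876532 (minus). Tgfbr1 lies at chr4:47353222-47414931 (plus), Tgfbr2 at chr9:116084293-116175360 (minus), Tgfbr3 at chr5:107106570-107289629 (minus), Ltbp1 at chr17:75005568-75392512 (plus) and Tgfbi at chr13:56609523-56639562 (plus).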

How the data were processed

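The 2 libraries were made with 10x Genomics 3' chemistry from 1 PBS and 1 CFA sample. The deposited values are raw UMI counts per gene and barcode, made by the authors with Cell Ranger 7.0.1 on GRCm38/mm10, and the annotation release and intron setting are not given in the sources used here. Barcodes with at least 500 genes, at most 10% mitochondrial UMIs and at most 1% hemoglobin UMIs were kept. Cells were clustered without the 10 members (Seurat 5.3.0 in R 4.3.3, SCTransform, integration of both libraries, 200 principal components, resolution 1.5) and clusters were named from canonical markers, at least 3 detected. Scrublet marked 0.787% of PBS and 0.0498% of CFA cells, too few in CFA to have worked, so doublets were not removed in the values given. UMIs were summed per class and library, levels are UMIs per 1000000 (CPM), and intervals were computed with scipy 1.17.1. With 1 library per condition no test across conditions was possible. Classes under 50 cells in a library were not compared. The text names the 10 members and, per class, at most the 3 highest and 3 lowest pathway genes past the fold. The members and lists were chosen with earlier results of these data known, and the naming rule was revised after the clusters were seen. The scripts were tested on simulated data. RefSeq promoters (GRCm38.p6) were matched by symbol. Tgfb3 and Tgfbr3 had no entry in the table used. Values of 1 pathway gene, included in the counts, are not reported here.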

Additional observations from a re-analysis of the deposited data

Results flagged for a closer look

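For 4 members the ratio was past the fold upwards in at least 1 class and downwards in another with intervals that exclude 1 in both, and the classes named here are those with such intervals. Tgfb3 and Ltbp2 were also past the fold in both directions, but the interval of the satellite-like Tgfb3 ratio (1.74 (0.82 to 4.02)) and of the erythroid-like Ltbp2 ratio (0.264 (0.0303 to 1.06)) included 1. The differences between classes were not tested.

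Tgfbr3 was higher in CFA in mural-like cells (1.71) and lower in B cell-like (0.316), erythroid-like (0.507) and immature neutrophil-like cells (0.0968). Tgfbi was higher in B cell-like (4.34), endothelial-like (3.16), erythroid-like (5.09), immature neutrophil-like (3.27) and mural-like cells (4.54), and lower in chondrocyte-like (0.531) and fibroblast-like cells (0.632). Tgfb2 was higher in Schwann-like (2.1), chondrocyte-like (1.68) and tenocyte-like cells (2.48) and lower in endothelial-like cells (0.578). Ltbp1 was higher in satellite-like cells (1.73) and lower in Schwann-like (0.509), chondrocyte-like (0.161), endothelial-like (0.525), erythroid-like (0.211), immature neutrophil-like (0.0281) and tenocyte-like cells (0.55). Some of these ratios did not stay past the fold under other settings. They were Tgfbr3 in mural-like (1.14), B cell-like (0.998) and erythroid-like cells (0.728), and Tgfb2 in Schwann-like (0.991) and endothelial-like cells (0.736). The same held for Tgfbi in erythroid-like (1.18), chondrocyte-like (0.896) and fibroblast-like cells (0.798), and for Ltbp1 in Schwann-like (1.07) and erythroid-like cells (0.89). The intervals count UMIs of 1 cell as separate.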

How the results depend on the processing

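No paired analysis was possible because each condition had 1 library, and for the same reason no replicate could be left out. For the 45 member ratios past the fold, 502 of 507 values under other settings kept their direction, 40 ratios kept it in every setting that gave a value, and 23 stayed past the fold throughout. The others fell inside the fold under at least 1 setting, with values given beside each ratio. The direction turned in 5 values, and the cause was not tested: the Tgfbr1 ratio in erythroid-like cells was 0.889 with no hemoglobin limit, the Ltbp1 ratio in Schwann-like cells 1.07 and the Tgfb1 ratio in fibroblast-like cells 1.0 with cells classed singly by their own markers, the Tgfb2 ratio in Schwann-like cells 0.991 after removal of the 5% of cells scored highest as doublets, and the Tgfbi ratio in Schwann-like cells 1.33 as a mean over cells. Counts moved by over 1.5 times under these settings. With at least 1000 genes per cell 45 pathway ratios were higher of 318 tested. With log-normalized counts merged without integration 9 member ratios were higher and 15 lower of 61, and 54 pathway ratios were lower of 289. With cells classed singly 5 member ratios were higher and 14 lower of 47, and 26 pathway ratios were higher and 51 lower of 212. These settings compared fewer pairs. With at least 100 UMIs 9 member ratios were higher and 17 lower of 64, and 55 pathway ratios were lower of 296. At a fold of 2, 14 member ratios were lower of 89 and 35 pathway ratios higher of 403. Leaving out erythroid-like cells, immature neutrophil-like cells or the cell with the most UMIs of a gene, settings chosen after seeing the data, moved no count by over 1.5 times.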
